A study of Mus musculus with 20 samples.

Results

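The genes of interest here are those on which loss of the corepressor NCoR1 and gain of the coactivator PGC-1alpha acted alike, unequally or in opposite directions in mouse muscle. Transcripts of the gastrocnemius, a mostly fast muscle of the calf, had been profiled with 20 Affymetrix arrays, and all 20 were used. All mice were adult C57BL/6 males, with 5 arrays in each of 4 groups. NCoR1-MKO muscle is labelled as a muscle-specific knockout of NCoR1 and was set against CON muscle, and PGC-1alpha-mTg muscle overexpressed PGC-1alpha from a muscle-specific transgene and was set against WT muscle. The exact genotype of the CON mice and the promoters that drive the deletion and the transgene are not given in the sources used here. Each gene was described by its log2 change from CON to NCoR1-MKO (the knockout effect), its log2 change from WT to PGC-1alpha-mTg (the transgenic effect) and the first minus the second (the difference of effects). A positive difference thus means that the knockout effect was the higher. All 19938 genes named by at least 1 probe set with a single symbol were tested, and levels were never set against each other across the cohorts.

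NCoR1 is a scaffold that bridges nuclear receptors and other transcription factors to histone deacetylases and so holds their target genes down. PGC-1alpha binds many of the same factors, among them the estrogen-related receptors and the PPARs, and recruits the machinery that switches targets on. In muscle PGC-1alpha is best known for driving mitochondrial biogenesis and fatty acid oxidation, and removal of a corepressor from the shared factors could in principle act on the same targets. The comparison asks how far the transcripts of both models coincide.

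A few properties of the whole set of arrays bear on every value. Array medians lay between 6.034 and 6.075 in the knockout cohort and between 5.843 and 5.915 in the transgenic cohort. A constant offset cancels when each effect is taken within its own cohort, but a gap that varies with level need not cancel. Counts were therefore also taken after quantile normalization across the 20 arrays. The mean correlation of an array with the others of its group was 0.9944 to 0.9957 in CON, NCoR1-MKO and WT and 0.9901 to 0.9940 in PGC-1alpha-mTg, where PGC-1alpha-mTg 5 was lowest. The median SD of a gene over 5 arrays was smallest in WT (0.0775) and largest in PGC-1alpha-mTg (0.105), with 0.0856 for CON and 0.0872 for NCoR1-MKO. The mean log2 level of 8 muscle fibre markers lay between 12.84 and 13.48 on every array, far above the array medians. Precision rests on 5 arrays per group, and the median half-width of the 95% interval of a difference of effects was 0.18.

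The transgenic model moved far more genes than the knockout, and where both models moved a gene they mostly moved it the same way. A gene is called where limma's p, adjusted over all genes by the Benjamini-Hochberg method, is under 0.05, and rose or fell is written only of called changes. The knockout effect was called for 525 genes (2.63% of those tested), 261 higher (1.31%) and 264 lower (1.32%). The transgenic effect was called for 5575 genes (28.0%), 2371 higher (11.9%) and 3204 lower (16.1%). Both effects were called for 390 genes, which is 74.3% of the knockout calls and 7.00% of the transgenic calls. In 329 of these (1.65% of all genes) the directions were the same, 153 upward and 176 downward, and in 61 (0.306%) they were opposite. Of the genes that rose in the knockout, 153 rose and 45 fell in the transgenic mice, and 63 were not called there. Of those that fell in the knockout, 176 fell and 16 rose in the transgenic mice, and 72 were not called. Among all genes called in the knockout, 411 of 525 had the same sign in the transgenic mice, called or not, a share of 78.3%, and among all genes called in the transgenic mice the share was 67.0%, against 54.9% of all genes tested. Across all genes the effects correlated weakly (Pearson r = 0.3238), which is a description across genes that share arrays and are not independent replicates.

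The difference of effects itself was called for 3022 genes (15.2%), the knockout effect being the higher in 1694 (8.50%) and the lower in 1328 (6.66%). The balance between these directions moved with the scaling. The higher share of the called genes was 56.1%, and it was 52.1% after quantile normalization across the 20 arrays and 60.8% with each array centred on its median. The majority turned without PGC-1alpha-mTg 2 and 3, to 47.1% (1147 higher and 1289 lower), and when a change beyond 1.2-fold was tested for, to 36.1%. The difference reached at least 2-fold in 73 called genes, 34 of them with the higher value in the knockout. Among the 329 genes called in both models with the same sign, the effect was larger in the transgenic mice in 140, larger in the knockout in 6, and not called as different in 183. A difference that is not called does not show equal effects, so a stricter reading was added: in 84 of the 329 genes (0.421% of all genes), 29 upward and 55 downward, the unadjusted 95% interval of the difference lay wholly within a 1.2-fold change either way. Counts of genes called in both models were sensitive to single arrays. The genes with the same direction numbered 219 without CON 3. Those larger in the transgenic mice numbered 87 without NCoR1-MKO 3, 88 without CON 3, 92 without NCoR1-MKO 1 and 93 without CON 4. Those within 1.2-fold numbered 50 without CON 3, 53 without NCoR1-MKO 3 and 54 without CON 5.

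**Figure D1:**
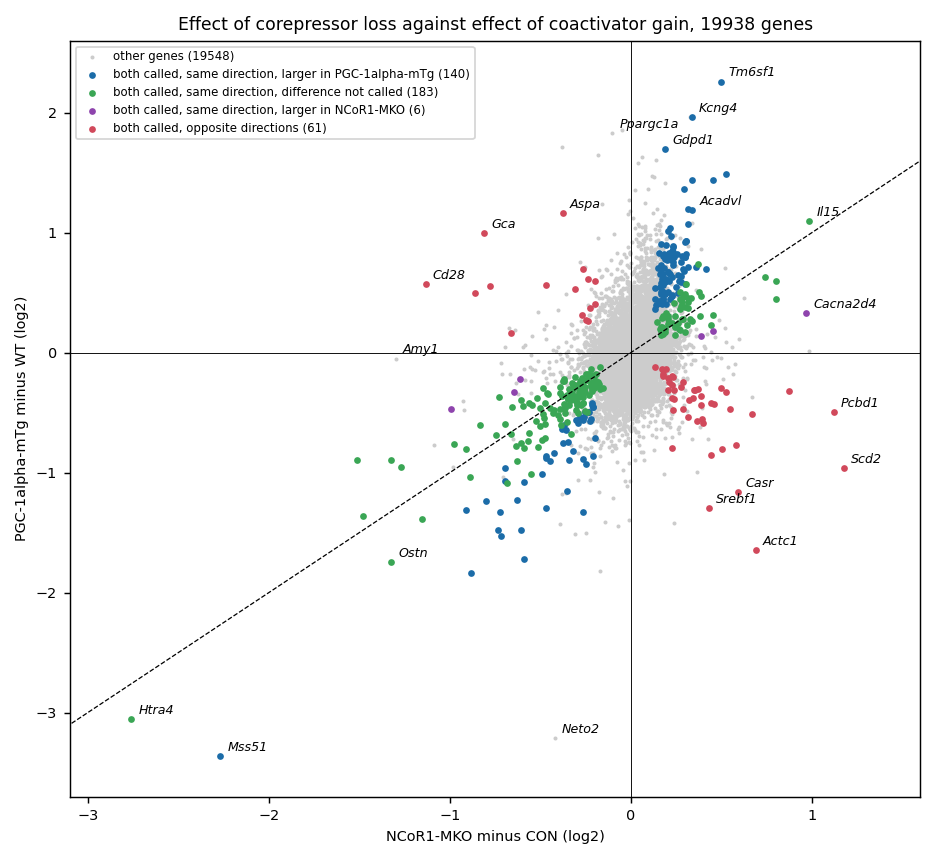
Log2 change from CON to NCoR1-MKO (horizontal axis) against log2 change from WT to PGC-1alpha-mTg (vertical axis) for 19938 genes, each point 1 gene; coloured points are the 390 genes called in both models and the dashed line marks equal effects. The 61 genes with opposite directions lie at the upper left and lower right, and most coloured points in the upper right lie above the line.

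Among the genes that moved in opposite directions were 3 of lipid synthesis and cholesterol export. Scd2, which introduces the double bond of monounsaturated fatty acids, rose 2.26-fold without NCoR1 and fell 1.95-fold with extra PGC-1alpha. On the log2 scale the CON arrays read 9.50, 9.23, 9.42, 9.18 and 9.33 and the NCoR1-MKO arrays 10.69, 10.57, 10.39, 10.41 and 10.47. The WT arrays read 9.23, 8.85, 9.00, 8.86 and 8.41 and the PGC-1alpha-mTg arrays 7.86, 7.84, 7.67, 8.23 and 7.93. No array of either model reached the range of its controls. The effects were 1.18 ± 0.11 and -0.96 ± 0.11 (SE, n = 5 per group), and they differed by 2.14 ± 0.16 (limma adjusted p = 5.64e-09), a 4.41-fold gap.

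Srebf1, which encodes the SREBP-1 transcription factors of fatty acid synthesis, behaved in the same sense, with the larger movement in the transgenic mice. Its WT arrays lay between 7.99 and 8.73 and its PGC-1alpha-mTg arrays between 6.94 and 7.11, with no overlap, while CON (8.79 to 9.24) and NCoR1-MKO (9.22 to 9.67) touched. The effects were 0.43 ± 0.11 (adjusted p = 0.0287) and -1.30 ± 0.11 (adjusted p = 2.41e-09), and the difference was 1.73 ± 0.15 (adjusted p = 3.77e-08). Leaving out any of CON 1, CON 2, CON 5 and NCoR1-MKO 1, 2 and 4 ended the call of the rise (adjusted p up to 0.0912), but no single array ended the call of the difference. Abca1, the exporter of cellular cholesterol and a target of the liver X receptors, went from 9.04 ± 0.18 (SD, n = 5) in CON to 9.59 ± 0.08 in NCoR1-MKO and from 8.44 ± 0.09 in WT to 7.97 ± 0.22 in PGC-1alpha-mTg. No array overlapped its controls in either cohort, and the difference was 1.01 ± 0.13 (adjusted p = 4.2e-06). Plin3, a coat protein of lipid droplets picked after its values had been seen, rose by 0.87 ± 0.11 in the knockout and fell in the transgenic mice (-0.32 ± 0.11), a fall that missed the threshold without WT 1 or 5 or PGC-1alpha-mTg 1 or 5 (adjusted p up to 0.0795).

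The list of lipogenesis and LXR target genes held 21 measured members, and 3 of them, Scd2, Srebf1 and Abca1, were called in opposite directions. The difference was called with the higher value in the knockout for 7 (also Insig1, Lpcat3, Me1 and Mylip) and with the lower value for 1. Over all genes these shares were 8.50% and 6.66%. The knockout called 5 of the 21 higher and 1 lower, and the transgenic model 3 higher and 5 lower. The median of the list was 0.15 in the knockout, 0.12 in the transgenic mice and 0.15 for the difference, against medians of 0.001, 0.018 and -0.014 over all genes. Insig1, which retains the SREBP proteins in the endoplasmic reticulum and was also picked after its values had been seen, rose in the knockout (0.45 ± 0.10) and stood at -0.06 ± 0.10 in the transgenic mice, with a difference of 0.51 ± 0.14 (adjusted p = 0.0124). Malic enzyme, Me1, which supplies NADPH for fatty acid synthesis, fell in both models (-0.27 ± 0.05 and -0.89 ± 0.05). Its fall was the larger in the transgenic mice (difference 0.62 ± 0.07, limma adjusted p = 5.6e-07). Of 9 adipocyte markers, the transgenic model called 2 higher and 1 lower and the knockout none, and the difference was called for 1 in each direction. Their mean, relative to the cohort's own controls, ran from -0.17 to 0.43 on CON arrays and -0.11 to 0.39 on NCoR1-MKO arrays, and from -0.28 to 0.16 on WT arrays and -0.10 to 0.27 on PGC-1alpha-mTg arrays. In whole muscle, fewer cells of a type and less RNA per cell cannot be told apart.

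Other genes that rose without NCoR1 and fell with PGC-1alpha came from varied functions. Actc1, which encodes the cardiac form of alpha-actin, gave the largest difference of the 61. The CON arrays read 13.26, 12.55, 12.54, 13.01 and 12.70 and the NCoR1-MKO arrays 13.40, 13.35, 13.54, 13.71 and 13.51. The WT arrays read 12.26, 11.97, 12.24, 12.51 and 12.13 and the PGC-1alpha-mTg arrays 9.99, 10.89, 10.62, 10.88 and 10.49. The gap in the transgenic cohort was wide, whereas the highest CON array came close to the lowest knockout array. The effects of 0.69 ± 0.15 and -1.65 ± 0.15 differed by 2.34 ± 0.21 (adjusted p = 6.55e-08), or 5.05-fold.

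Casr, the extracellular calcium-sensing receptor, differed by 1.75 ± 0.16 (0.59 ± 0.11 and -1.16 ± 0.11), and its arrays did not overlap in either cohort. Pcbd1, which regenerates the cofactor tetrahydrobiopterin, rose 2.17-fold in the knockout, from 6.40 ± 0.18 (SD, n = 5) to 7.52 ± 0.29, and fell 1.41-fold in the transgenic mice, from 5.91 ± 0.18 to 5.41 ± 0.11. Sntb1, a syntrophin of the dystrophin complex, moved by 0.50 ± 0.11 and -0.80 ± 0.11. Ppp1r1a, an inhibitor subunit of protein phosphatase 1, moved by 0.67 ± 0.08 and -0.51 ± 0.08. Gpt2, the mitochondrial alanine aminotransferase, moved by 0.37 ± 0.06 and -0.31 ± 0.06, so that the difference of 0.68 ± 0.09 (adjusted p = 5.33e-06) was split almost evenly between the models.

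The 16 genes that fell without NCoR1 and rose with PGC-1alpha were led by Gca and Cd28. Cd28, known as the costimulatory receptor of T cells, fell from 7.12, 7.04, 7.33, 7.37 and 7.05 on the CON arrays to 6.17, 6.02, 6.07, 6.02 and 5.96 on the NCoR1-MKO arrays. In the other cohort it rose from 6.86, 6.83, 6.64, 6.95 and 6.68 to 7.34, 7.53, 7.44, 7.27 and 7.23. The arrays of each cohort were fully separated, in opposite senses, and the effects of -1.13 ± 0.07 and 0.57 ± 0.07 differed by -1.70 ± 0.10 (adjusted p = 3.85e-10). No difference was called for 12 macrophage markers, and their mean relative to the cohort's own controls ran from -0.06 to 0.06 on CON arrays and -0.18 to 0.35 on NCoR1-MKO arrays, and from -0.17 to 0.06 on WT arrays and -0.08 to 0.21 on PGC-1alpha-mTg arrays. Markers of T cells were not examined.

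Gca, which encodes the calcium-binding protein grancalcin, gave the largest difference of this direction, -1.80 ± 0.15, from a fall of 0.81 ± 0.11 and a rise of 0.99 ± 0.11. Its CON arrays lay between 7.98 and 8.37 and its NCoR1-MKO arrays between 7.07 and 7.75, while WT lay between 7.38 and 7.81 and PGC-1alpha-mTg between 8.41 and 8.69. Rnf128, a ubiquitin ligase, went from 8.39 ± 0.07 (SD, n = 5) to 7.61 ± 0.12 in the knockout cohort and from 7.99 ± 0.06 to 8.54 ± 0.09 in the transgenic cohort. Slc40a1, the iron exporter ferroportin, moved by -0.86 ± 0.10 and 0.50 ± 0.10. Padi2, a peptidylarginine deiminase, moved by -0.47 ± 0.09 and 0.57 ± 0.09, and Fam20b, a xylose kinase of proteoglycan synthesis, by -0.26 ± 0.05 and 0.69 ± 0.05. The arrays of each of these 5 genes were separated in both cohorts.

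Across all 61 genes with opposite directions, 45 rose and 16 fell in the knockout, and the difference of effects was called in each. The arrays of both cohorts were separated in 40 of them, against 4.17% of all genes in the knockout cohort, 19.9% in the transgenic cohort and 2.45% in both, a measure that is not independent of the calls. The opposite calls held in all 20 fits that left out 1 array for 31 genes, and the count of such genes fell to 40 without NCoR1-MKO 3. The difference stayed called in all 20 such fits for all 61 genes. Opposite calls were kept by 49 of the 61 with arrays centred on their median, by 45 with each effect from its own 10 arrays, by 38 with the replicate number as a block and by 5 when a change beyond 1.2-fold was tested for. None was called in both models with the same direction under any alternative.

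**Figure D2:**
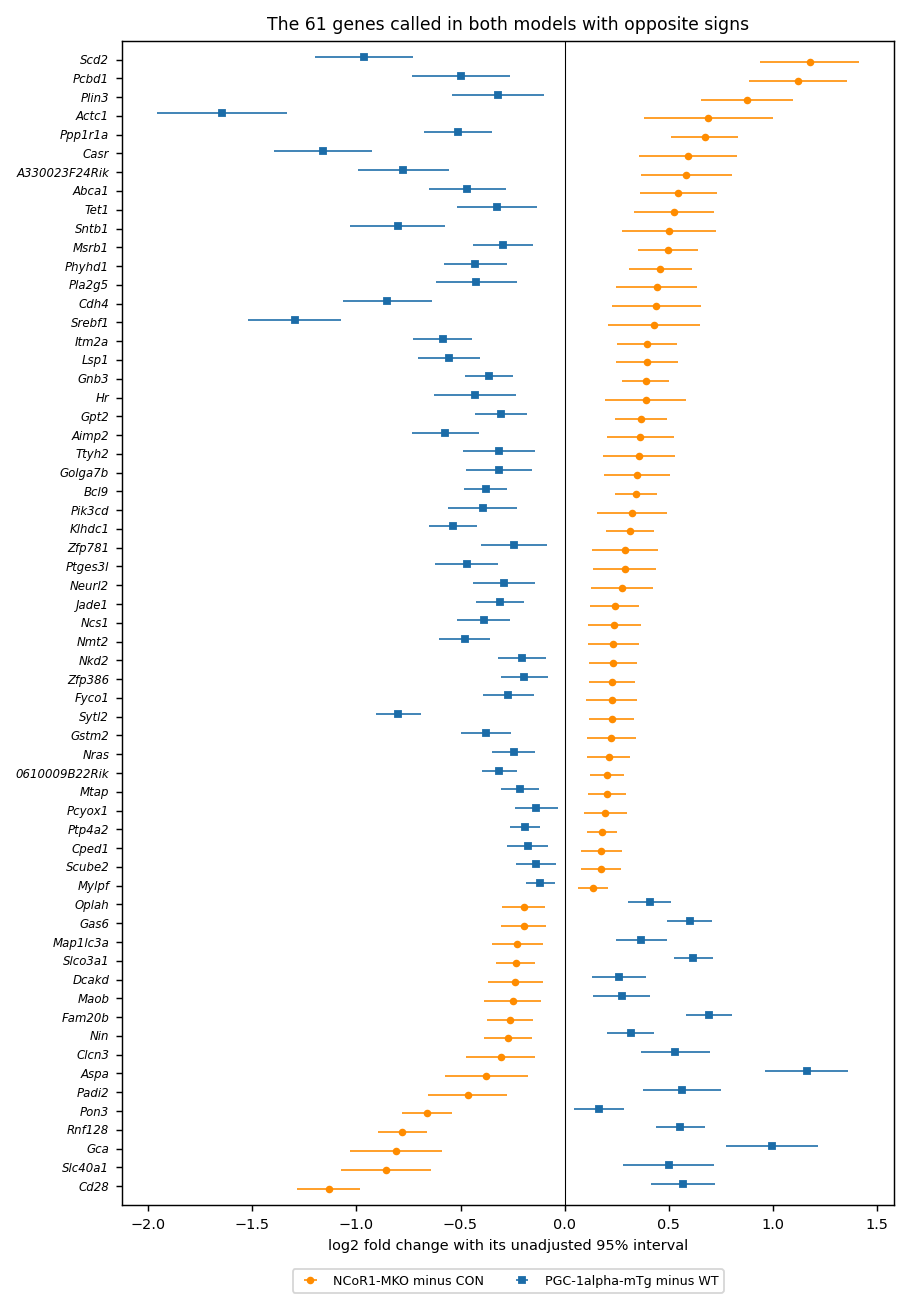
Log2 fold change with its unadjusted 95% interval for the 61 genes called in both models with opposite signs, circles for NCoR1-MKO minus CON and squares for PGC-1alpha-mTg minus WT (n = 5 arrays per group). The 45 upper genes rose in the knockout and the 16 lower genes fell, and Scd2 at the top and Cd28 at the bottom have the largest knockout effect of their block.

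Several of the deepest falls were shared, with differences that were not called here, though single alternatives called some of them. Htra4, a secreted serine protease of the HtrA family, fell 6.78-fold without NCoR1 and 8.32-fold with PGC-1alpha. The CON arrays read 10.73, 10.63, 10.61, 10.74 and 10.52 and the NCoR1-MKO arrays 8.09, 7.97, 8.04, 7.86 and 7.47. The WT arrays read 10.07, 10.50, 10.45, 10.20 and 10.11 and the PGC-1alpha-mTg arrays 7.25, 7.32, 7.17, 7.32 and 6.98. Every array of either model lay over 2 log2 units below every control of its cohort. The difference of effects was 0.30 ± 0.14 with a 95% interval from -0.00 to 0.59 (adjusted p = 0.194), so equal effects and a 1.5-fold gap were both within reach of these arrays. Without NCoR1-MKO 5 the difference was called.

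Ostn, which encodes musclin, a peptide secreted by muscle, fell by 1.32 ± 0.12 and 1.75 ± 0.12. Its arrays went from 8.69 to 9.10 in CON down to 7.20 to 7.94 in NCoR1-MKO, and from 8.51 to 9.28 in WT down to 7.00 to 7.28 in PGC-1alpha-mTg. The difference of 0.43 ± 0.18 was not called (adjusted p = 0.116) but was called with the replicate number as a block (adjusted p = 0.0164). It was also called without NCoR1-MKO 4 and without WT 3. Pld5, an inactive member of the phospholipase D family, fell by 1.15 ± 0.09 and 1.38 ± 0.09, and its difference was called without CON 3. Npnt, the integrin ligand nephronectin, fell by 1.27 ± 0.15 and 0.95 ± 0.15, and Ctnna3, an alpha-catenin of cell junctions, by 0.89 ± 0.09 and 1.03 ± 0.09. Lgi1, a secreted synaptic protein, fell by 1.52 ± 0.21 and 0.89 ± 0.21, and the carrier gene Slc25a30 by 1.32 ± 0.22 and 0.89 ± 0.22. The intervals of these differences were wide, from -1.25 to -0.00 for Lgi1 and from -1.08 to 0.22 for Slc25a30, and include gaps of 2-fold.

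The main shared rise was that of Il15, a cytokine made by muscle. The CON arrays read 7.65, 7.48, 7.26, 6.98 and 7.18 and the NCoR1-MKO arrays 8.22, 8.13, 8.51, 8.19 and 8.42. In the other cohort WT read 7.09, 7.00, 7.04, 7.04 and 7.28 and the PGC-1alpha-mTg arrays 8.24, 8.16, 8.12, 8.10 and 8.30. Both models were clear of their controls, by 0.98 ± 0.10 and 1.09 ± 0.10, and the difference of -0.11 had a 95% interval from -0.39 to 0.17 (adjusted p = 0.673).

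Among slow-fibre genes of the sarcomere, Myl2, the regulatory light chain of slow myosin, fell in both models, by 0.91 ± 0.18 and 0.81 ± 0.18, with a difference of -0.10 ± 0.25 that stood at 0.02 without CON 2 and at 0.00 without NCoR1-MKO 5. Over the 14 slow-fibre genes the median effects were -0.43 and -0.61 and the median difference was -0.00. The knockout called 2 of the 14 lower, against 1.32% of all genes. The transgenic model called 8 lower and 2 higher, against 16.1% and 11.9%. The difference was called for 2 of the 14, a share near the 15.2% of all genes. Both had the higher value in the knockout, but after quantile normalization 2 had the higher and 1 the lower value. The knockout called 5 without CON 5, 4 without NCoR1-MKO 3, and 1 without CON 1, CON 2 or NCoR1-MKO 5.

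The genes held most tightly together were of modest size. Among the 84 genes whose interval lay within 1.2-fold, the strongest downward one was Rps6ka3, a kinase downstream of ERK, at -0.50 ± 0.05 and -0.46 ± 0.05, with an interval of the difference from -0.18 to 0.10. The unadjusted interval excludes a gap of 1.2-fold for this gene. An upward one was Pmpcb, a subunit of the peptidase that trims imported mitochondrial proteins, at 0.27 ± 0.06 and 0.36 ± 0.06. Both genes were picked after their values had been seen.

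**Figure D3:**
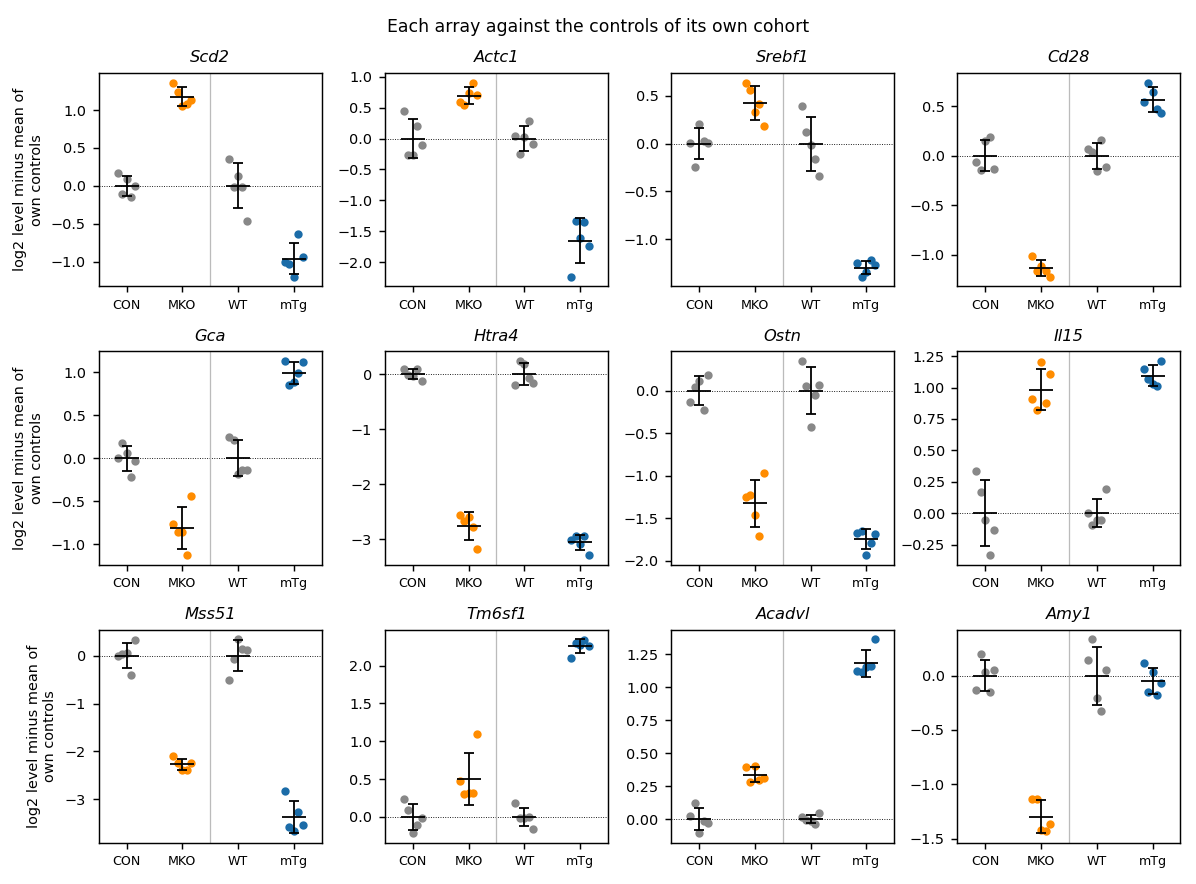
Log2 level on each array minus the mean of the cohort's own controls for 12 genes, points for single arrays, horizontal bars for group means and vertical bars for the SD (n = 5); MKO is NCoR1-MKO and mTg is PGC-1alpha-mTg. Scd2, Actc1, Srebf1, Cd28 and Gca move in opposite directions, Htra4, Ostn and Il15 move alike, Mss51, Tm6sf1 and Acadvl move further in the transgenic mice, and Amy1 falls only in the NCoR1-MKO arrays.

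Where both models moved a gene the same way and the sizes differed, the transgenic effect was nearly always the larger one, in 140 of 146 genes. Upward genes made up 94 of the 140. Mss51, a mitochondrial protein of fast fibres that responds to myostatin, showed the greatest falls in this class. The CON arrays read 9.83, 9.88, 9.89, 9.43 and 10.17 and the NCoR1-MKO arrays 7.74, 7.61, 7.46, 7.45 and 7.59. WT stood at 10.45, 10.88, 11.30, 11.10 and 11.08 and the PGC-1alpha-mTg arrays 8.13, 7.39, 7.31, 7.71 and 7.44. The fall was 4.82-fold without NCoR1 and 10.3-fold with PGC-1alpha, and these differed by 1.10 ± 0.21 (adjusted p = 0.000862). Mstn itself, the inhibitor of muscle growth myostatin, fell by 0.63 ± 0.08 and 1.23 ± 0.08 (difference 0.60 ± 0.12, adjusted p = 0.000975). Ociad2, a mitochondrial and endosomal membrane protein, fell by 0.72 ± 0.06 and 1.53 ± 0.06. Kcnab1, an auxiliary subunit of potassium channels, fell by 0.61 ± 0.13 and 1.48 ± 0.13.

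Several named genes that rose in both models and more with PGC-1alpha encode mitochondrial proteins. Acadvl, which opens the oxidation of very long fatty acids, rose from 9.96, 10.06, 9.83, 9.92 and 9.91 in CON to 10.33, 10.22, 10.34, 10.23 and 10.25 in NCoR1-MKO. In the transgenic cohort it rose from 9.39, 9.37, 9.36, 9.34 and 9.42 to 10.50, 10.49, 10.53, 10.54 and 10.74. Both rises cleared the controls, yet 1.27-fold stood against 2.27-fold, a difference of -0.85 ± 0.07 (adjusted p = 2.17e-08). Ppif, the cyclophilin that regulates the mitochondrial permeability pore, rose by 0.34 ± 0.05 and 1.44 ± 0.05. Mtfp1, a promoter of mitochondrial fission, rose by 0.29 ± 0.05 and 1.37 ± 0.05, and Dlat, the acetyltransferase of the pyruvate dehydrogenase complex, by 0.20 ± 0.04 and 1.01 ± 0.04. Sirt3, the main protein deacetylase of the mitochondrial matrix, rose by 0.21 ± 0.06 and 1.04 ± 0.06. Leaving out any of CON 1, CON 3, CON 4, CON 5 and NCoR1-MKO 1, 2, 3 and 4 ended the call of its rise in the knockout (adjusted p up to 0.110).

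Tm6sf1, a lysosomal membrane protein gene, had the largest rise of all genes tested in the transgenic model. Its PGC-1alpha-mTg arrays lay between 10.24 and 10.48 and its WT arrays between 7.98 and 8.32. In the knockout 4 arrays lay between 8.44 and 8.62 and NCoR1-MKO 5 stood at 9.24, against 7.93 to 8.38 in CON. The effects of 0.50 ± 0.12 and 2.26 ± 0.12 differed by -1.76 ± 0.16 (adjusted p = 9.21e-08), and the knockout rise missed the threshold without CON 3 (adjusted p = 0.0655).

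The promoters of the genes that rose in both models were searched for short motifs in the 250 bases before the annotated start. Counts are of genes with a promoter, and a gene counts where any of its promoters holds the motif on either strand. CCGGAAG is the core bound by ETS factors including the GA-binding protein NRF-2. It was present in 14 of 76 genes that rose in both models and more so in the transgenic mice (18.4%). It was present in 8 of 40 genes that rose in both with no called difference (20.0%) and in 3 of 102 that fell so (2.94%). Of genes that fell in both and more so in the transgenic mice it was in 2 of 38 (5.26%). Among all genes tested that had a promoter the share was 10.7%. Direction did not order the larger classes the same way: among genes called in the transgenic mice and not in the knockout, with a called difference, the core was in 125 of 910 that rose (13.7%) and 189 of 1188 that fell (15.9%). The half-site of the estrogen-related receptors, AAGGTCA, was present in 4 of 76 (5.26%) of the first set and in 3.99% of all genes with a promoter. The half-site was in 0 of 40 that rose in both with no called difference and in 3 of 102 that fell so (2.94%). Its highest share of these classes was 4 of 38 (10.5%), in genes that fell in both and more so in the transgenic mice. Its extended form TCAAGGTCA, which contains it, was in 0 of 76 and 0.333% of all. The E-box CACGTG was in 5 of 76 (6.58%) and 8.11% of all. A match is only a description of these windows. The promoters of Ppif and Sirt3 are shown because both genes rose in both models and hold the CCGGAAG core, here on the opposite strand and so read as CTTCCGG, in capitals. They are RefSeq sequence of build GRCm38.p6, chr14:25693920-25694169 on the plus strand for Ppif and chr7:140882310-140882559 on the minus strand for Sirt3, and the match begins 195 and 85 bases before the start.
Ppif: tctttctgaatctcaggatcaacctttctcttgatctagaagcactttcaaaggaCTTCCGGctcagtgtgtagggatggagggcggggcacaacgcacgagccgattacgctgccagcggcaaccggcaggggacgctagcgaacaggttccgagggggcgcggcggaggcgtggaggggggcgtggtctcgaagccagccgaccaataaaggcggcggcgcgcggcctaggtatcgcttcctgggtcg
Sirt3: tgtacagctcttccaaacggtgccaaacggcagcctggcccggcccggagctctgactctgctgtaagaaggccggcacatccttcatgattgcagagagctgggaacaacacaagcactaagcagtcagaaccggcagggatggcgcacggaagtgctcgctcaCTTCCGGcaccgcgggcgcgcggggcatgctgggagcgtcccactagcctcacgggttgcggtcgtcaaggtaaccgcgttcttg

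The effect was larger in the knockout for 6 genes called in both, a class that is small under every setting tried. They were Cacna2d4, Irak2 and Ptprs upward and Ssbp2, Bmpr1b and 2610002M06Rik downward. Irak2 lost the called difference without CON 4 or 5, NCoR1-MKO 2 or 4, WT 2 or 4, or PGC-1alpha-mTg 4 (adjusted p up to 0.0557). Cacna2d4, an accessory protein of calcium channels opened by voltage, rose by 0.97 ± 0.12 in the knockout and by 0.33 ± 0.12 (adjusted p = 0.0495) in the transgenic mice, and the latter call was lost in 13 of 20 fits that left out 1 array (adjusted p up to 0.123; all but those without CON 1, 3 or 5, NCoR1-MKO 4 or 5, WT 2 or PGC-1alpha-mTg 5). Ssbp2, a cofactor of LIM-domain transcription factors, was steadier. It went from 10.26 ± 0.07 (SD, n = 5) to 9.62 ± 0.08 in the knockout cohort and from 9.63 ± 0.06 to 9.31 ± 0.12 in the transgenic cohort, a difference of -0.32 ± 0.08 (adjusted p = 0.00732). Bmpr1b, a receptor of bone morphogenetic proteins, fell by 0.61 ± 0.07 and 0.22 ± 0.07. Without WT 5 the class held 3 genes.

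Effects called in the knockout and not in the transgenic mice, with a called difference, were seen in 39 genes upward and 38 downward. Amy1, which encodes an amylase, led them. The CON arrays read 8.03, 8.36, 8.20, 8.01 and 8.21 and the NCoR1-MKO arrays 7.03, 7.03, 6.74, 6.73 and 6.80. The WT arrays read 7.86, 8.05, 7.51, 7.39 and 7.77 and the PGC-1alpha-mTg arrays 7.83, 7.57, 7.75, 7.54 and 7.65. The knockout arrays lay well below CON, while the transgenic arrays lay within the WT range, and the difference was -1.25 ± 0.14 (adjusted p = 1.74e-06). Neu2, a cytosolic sialidase, fell from 8.70 ± 0.19 (SD, n = 5) to 7.99 ± 0.08 in the knockout and stood at -0.09 ± 0.07 in the transgenic mice. Dach2, a transcriptional cofactor linked to denervation, fell by 0.67 ± 0.08 in the knockout and stood at 0.20 ± 0.08 in the transgenic mice (adjusted p = 0.0651), and Itga4, an integrin subunit, fell by 0.64 ± 0.09 against 0.19 ± 0.09 (adjusted p = 0.140).

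Upward genes of this kind included Frzb, a secreted antagonist of Wnt proteins, at 0.57 ± 0.09 in the knockout and -0.09 ± 0.09 in the transgenic mice, and Abcd2, a peroxisomal fatty acid transporter, at 0.41 ± 0.05 and -0.13 ± 0.05. Ppargc1b, the close relative of PGC-1alpha that also drives oxidative genes, rose in the knockout by 0.51 ± 0.12 (adjusted p = 0.0193) and stood at -0.22 ± 0.12 in the transgenic mice. Its CON arrays lay between 7.92 and 8.19 and 4 of its NCoR1-MKO arrays between 8.61 and 8.73, with NCoR1-MKO 5 at 8.14. The difference of 0.73 ± 0.17 (adjusted p = 0.00408) kept its call in each fit that left out 1 array, but the knockout effect lost it without CON 3, without NCoR1-MKO 3 and without NCoR1-MKO 4 (adjusted p of at most 0.0642).

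Effects called in the transgenic mice and not in the knockout, with a called difference, were far more numerous, 1109 upward and 1476 downward. The transgene's own gene is among them. Ppargc1a went from 9.55, 9.38, 9.65, 9.63 and 9.75 on the WT arrays to 11.36, 11.37, 11.37, 11.53 and 11.48 on the PGC-1alpha-mTg arrays. The CON arrays read 10.45, 10.65, 10.55, 10.30 and 10.53 and the NCoR1-MKO arrays 10.36, 10.29, 10.41, 10.44 and 10.45. The transgenic arrays were clear of their controls and the knockout arrays lay within theirs, apart from the lowest, and the difference was -1.93 ± 0.09 (adjusted p = 8.77e-12). Another probe set of the same gene fell in the transgenic mice (adjusted p = 1.73e-07) and stood at -0.10 in the knockout, a difference of 0.90 (adjusted p = 0.000192 among all probe sets). Ncor1 was not analysed here, so the knockout was not checked on its own gene.

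Neto2, an auxiliary protein of kainate receptors, gave the largest difference of all genes tested, 2.79 ± 0.30 (adjusted p = 6.96e-07). Its WT arrays spread from 7.31 to 8.73 and its PGC-1alpha-mTg arrays lay between 4.43 and 5.23, while CON (7.90 to 8.82) and NCoR1-MKO (7.75 to 8.19) overlapped, with an effect of -0.42 ± 0.21 (adjusted p = 0.471). Car2, the fast cytosolic carbonic anhydrase, rose by 1.86 ± 0.12 in the transgenic mice and stood at -0.05 ± 0.12 in the knockout. Esrrb, an estrogen-related receptor, rose 1.35 ± 0.08 against 0.02 ± 0.08, and Vegfb, a growth factor tied to fatty acid uptake, 0.99 ± 0.04 against 0.04 ± 0.04. Gamt, the last enzyme of creatine synthesis, fell by 1.42 ± 0.09 in the transgenic mice and stood at 0.24 ± 0.09 in the knockout (adjusted p = 0.216). Prkag3, the gamma subunit of AMP-activated kinase in glycolytic fibres, fell by 1.82 ± 0.08 against -0.17 ± 0.08.

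Genes were next read by pathway. The lists were not chosen blind to these data, and their counts are set beside 8.50% of all genes with a higher and 6.66% with a lower knockout effect. Genes of the oxidative machinery rose widely with PGC-1alpha, while a minority of them was called in the knockout. Over 82 genes of the respiratory chain and ATP synthase the median effect was 0.13 in the knockout, or 1.09-fold, and 0.52 in the transgenic mice, or 1.44-fold. The effects had the same sign in 78 of the 82. The knockout called 20 of them higher, the transgenic model 80, and neither called any lower. The difference was called for 73, each with the lower value in the knockout, and its median was -0.40. In complex I, which passes electrons from NADH to ubiquinone, 33 of 35 differences were called, with a median of -0.45. Ndufb10, an accessory subunit, stood at 0.14 ± 0.05 (adjusted p = 0.128) and rose by 0.93 ± 0.05. Its PGC-1alpha-mTg arrays lay between 9.29 and 9.51 against 8.38 to 8.57 in WT, and its NCoR1-MKO arrays between 8.47 and 8.61 against 8.36 to 8.44 in CON, so the small knockout shift cleared the controls without being called. Called differences numbered 12 of 14 in complexes II and III together with cytochrome c, 15 of 18 in complex IV and 13 of 15 in ATP synthase, all lower in the knockout. Cox4i1, a core subunit of cytochrome c oxidase, stood at 0.15 ± 0.04 (adjusted p = 0.0609) against a rise of 0.94 ± 0.04. Counts of the knockout effect were fragile: the 20 called became 10 without CON 3, 12 without CON 5 and 11 without NCoR1-MKO 3.

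Fuel oxidation showed the same inequality. All 23 measured genes of fatty acid uptake and oxidation had a called difference, each lower in the knockout, with medians of 0.18 and 0.66. With arrays centred on their median 20 of the 23 were called. Acadl, the long-chain acyl-CoA dehydrogenase, stood at 0.24 ± 0.07 (adjusted p = 0.0569) in the knockout and rose by 0.98 ± 0.07 in the transgenic mice. Of 21 genes of the TCA cycle and pyruvate dehydrogenase 17 had the lower value in the knockout and 1 the higher. That one, named because it is the exception, was Pdk1, a kinase that shuts off pyruvate dehydrogenase, which fell in the transgenic mice (-0.22 ± 0.05, against 0.03 ± 0.05 in the knockout). Its difference of 0.25 ± 0.08 lost its call without CON 4, NCoR1-MKO 1 or 3, WT 1 or PGC-1alpha-mTg 2 or 3 (adjusted p up to 0.0587). Dlst, of the oxoglutarate dehydrogenase complex, stood at 0.15 ± 0.04 against a rise of 0.88 ± 0.04. In branched-chain amino acid catabolism 8 of 18 had the lower value in the knockout and 1 the higher, and the former count was 6 with arrays centred and 10 after quantile normalization.

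The mitochondrial ribosome, which translates the few proteins encoded in the organelle, had 49 of 75 differences called, all lower in the knockout, with medians of 0.07 and 0.36. The count was 38 with arrays centred and 55 after quantile normalization. Mrpl45 led it, at 0.09 ± 0.05 against 0.87 ± 0.05. Of 24 genes of protein import and mitochondrial dynamics 13 had the lower value in the knockout and none the higher, with Timm44, of the import motor, at 0.06 ± 0.05 against 0.67 ± 0.05 and Mfn1, a fusion protein, at 0.12 ± 0.04 against 0.68 ± 0.04. Genes that copy and transcribe mitochondrial DNA did not share this pattern of differences. Of 14, 2 had the lower and 1 the higher value in the knockout, and their median effects were 0.09 and 0.04. The transgenic model still called 6 of the 14 higher and the knockout 2, and neither called any lower. Tfam, the factor that packages and transcribes mitochondrial DNA, rose in both, by 0.25 ± 0.06 and 0.55 ± 0.06 (difference -0.30 ± 0.08, adjusted p = 0.0162). The former call was lost when CON 3, CON 4, CON 5, NCoR1-MKO 2 or NCoR1-MKO 5 was left out (adjusted p up to 0.0782).

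**Figure D4:**
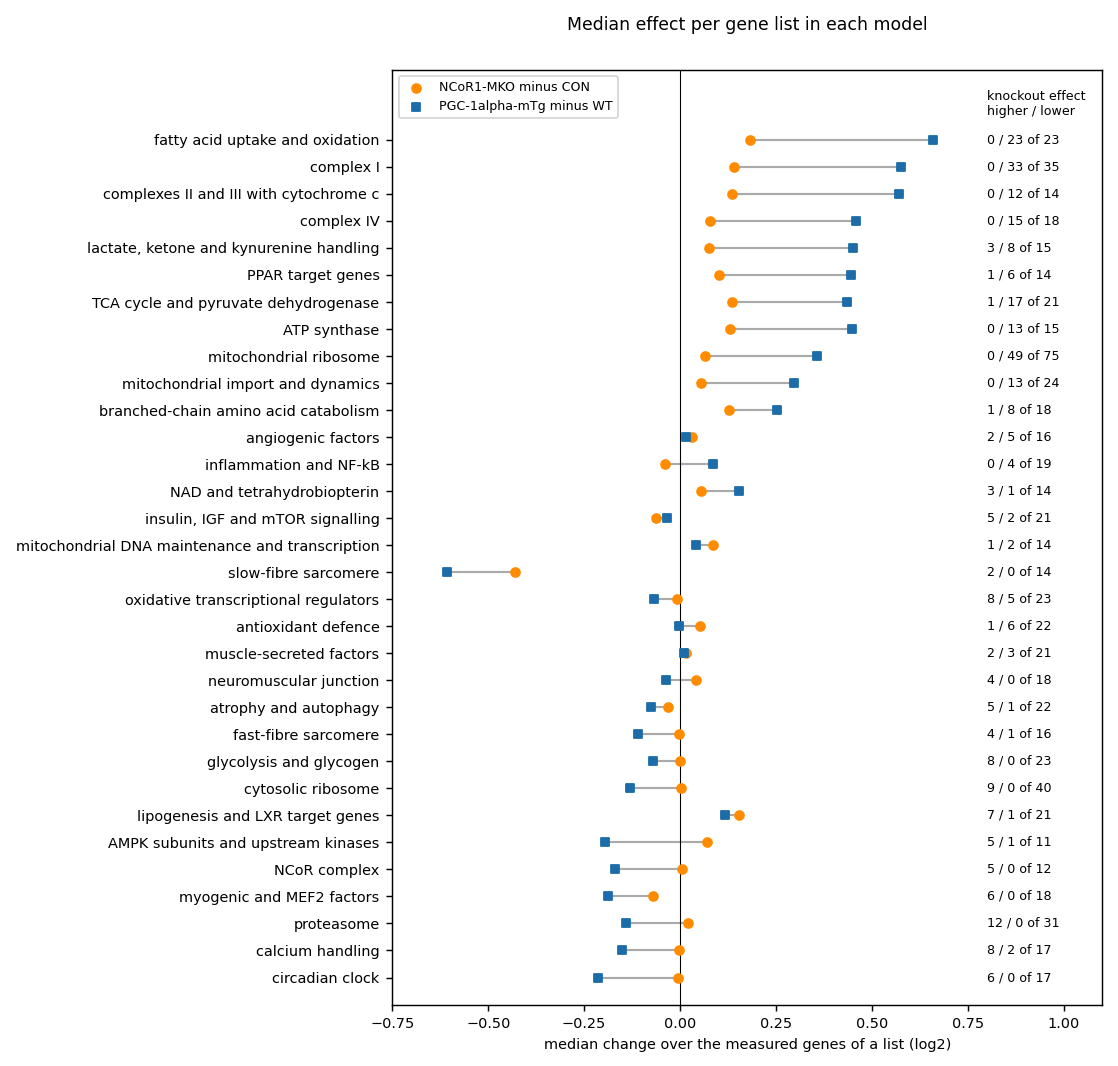
Median log2 effect over the measured genes of 32 pathway lists, circles for NCoR1-MKO minus CON and squares for PGC-1alpha-mTg minus WT; the text at the right counts genes with a called difference, knockout effect higher then lower, of those measured. The lists are ordered by the median difference of effects, with fatty acid oxidation and the respiratory complexes at the top and the circadian clock at the bottom.

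In several lists the called differences mostly had the higher value in the knockout. Of 31 proteasome subunits, which degrade ubiquitin-tagged proteins, the transgenic model called 14 lower and 2 higher and the knockout called none. The difference was called with the higher value in the knockout for 12 and with the lower value for none. The former count was 7 without CON 4 and 7 without WT 1. Psmd8, of the regulatory particle, stood at -0.09 ± 0.05 against -0.48 ± 0.05. Of 40 cytosolic ribosomal proteins the transgenic model called 20 lower and none higher, the knockout called 1 lower, and the difference was called for 9, all higher in the knockout, with Rpl8 at 0.01 ± 0.05 against -0.29 ± 0.05. Myogenic and MEF2 factors had 10 of 18 lower in the transgenic mice, none called in the knockout, and 6 differences with the higher value in the knockout. Myf6, a myogenic factor kept in adult fibres, stood at -0.09 ± 0.09 against -0.77 ± 0.09, and Sox6, a repressor of slow-fibre genes, at -0.11 ± 0.05 against -0.43 ± 0.05.

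Glycolysis and glycogen genes had 8 of 23 differences called, all with the higher value in the knockout. The transgenic model called 9 of them lower and 3 higher, and the knockout called 1 higher. Phkb, a regulatory subunit of phosphorylase kinase that starts glycogen breakdown, went from 11.57 ± 0.07 (SD, n = 5) in WT to 10.65 ± 0.10 in PGC-1alpha-mTg and from 12.18 ± 0.01 in CON to 12.11 ± 0.04 in NCoR1-MKO. The difference of 0.84 ± 0.07 (adjusted p = 1.08e-08) lay almost wholly in the transgenic fall. Calcium handling had 8 of 17 with the higher value in the knockout and 2 with the lower. The transgenic model called 10 lower and 3 higher, and the knockout called 2 higher. Jph2, which anchors the sarcoplasmic reticulum to the plasma membrane, stood at -0.00 ± 0.05 against -0.75 ± 0.05. Of 12 genes of the NCoR complex other than NCoR1 itself the knockout called none, and 5 differences had the higher value in the knockout. The count lay from 2 to 6 with 1 array left out. It was 2 without WT 3 or PGC-1alpha-mTg 3 or 4, and 3 without CON 1, 3, 4 or 5, NCoR1-MKO 1, 2 or 4, WT 1 or 2, or PGC-1alpha-mTg 2. Tbl1xr1, an exchange factor of the complex, stood at -0.10 ± 0.06 against -0.54 ± 0.06, and Hdac9, a class IIa deacetylase, at 0.18 ± 0.08 against -0.41 ± 0.08.

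Clock genes differed between the models, and Arntl among them spread widely between the knockout arrays. Of 17 members 6 had the higher value in the knockout and none the lower, and the median difference of 0.35 was the highest of the lists. The transgenic model called 6 of the 17 lower and none higher, and the knockout called 1 higher and 2 lower. Arntl, which encodes the clock activator BMAL1, read 7.00, 6.88, 7.00, 6.86 and 6.93 in CON and 8.63, 8.15, 7.10, 7.10 and 7.06 in NCoR1-MKO. In WT it read 7.50, 6.90, 6.86, 6.79 and 7.05 and the PGC-1alpha-mTg arrays 6.76, 6.62, 6.72, 6.68 and 6.47. NCoR1-MKO 1 and 2 stood more than 1 log2 unit above the other knockout arrays, and WT 1 was the highest of its group. Neither effect was called, and the difference of 1.04 ± 0.31 (adjusted p = 0.024) lost its call without NCoR1-MKO 2 or WT 1 (adjusted p up to 0.0513). Clock, the partner of BMAL1, was also highest on NCoR1-MKO 1 and 2 (9.41 and 9.24, the others 8.95 to 9.01). Its difference of 0.60 ± 0.11 (adjusted p = 0.000321) kept its call in each such fit. Collection times of the tissues are not given in the sources used here, and their part in the result was not tested.

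Genes of muscle secretion and vessels split by member, while the called differences of neuromuscular junction genes all had the higher value in the knockout. Of 21 muscle-secreted factors 2 had the higher value in the knockout, Mstn and Igf1, and 3 the lower. Igf1, a growth factor of muscle, fell by 0.80 ± 0.12 in the transgenic mice and stood at -0.24 ± 0.12 in the knockout (adjusted p = 0.420). Of 18 neuromuscular junction genes 4 had the higher value in the knockout, Ache, Chrnb1, Musk and Ncam1, and none the lower. The transgenic model called 5 of the 18 lower and 2 higher, and the knockout called 1 lower. Musk, the receptor kinase of the junction, fell by 0.91 ± 0.09 and 1.31 ± 0.09. Its difference of 0.40 ± 0.13 (adjusted p = 0.0374) lost its call without CON 1, 2 or 4, NCoR1-MKO 1 or 5, WT 2, 3 or 5, or PGC-1alpha-mTg 1 or 3 (adjusted p up to 0.0761). Of 16 angiogenic factors 5 had the lower value in the knockout and 2 the higher. Epas1, a hypoxia-inducible factor rich in endothelium, stood at 0.05 ± 0.05 against a rise of 0.63 ± 0.05. Endothelial markers had median effects of 0.20 in the knockout and 0.37 in the transgenic mice over 12 genes, of which the knockout called 1 higher and the transgenic model 9. Their mean relative to the cohort's own controls ran from -0.13 to 0.14 on CON arrays and 0.07 to 0.39 on NCoR1-MKO arrays, and from -0.09 to 0.12 on WT arrays and 0.24 to 0.44 on PGC-1alpha-mTg arrays. Their part in the vessel factors was not tested. Emcn, an endothelial sialoprotein, was the only endothelial marker with a called difference (-0.30 ± 0.09, adjusted p = 0.0313). That call was lost without CON 1, 4 or 5, NCoR1-MKO 2 or 4, WT 2 or 5, or PGC-1alpha-mTg 4 (adjusted p up to 0.0636). The count of called endothelial markers depended on the scaling. It was 4 after quantile normalization, all lower in the knockout, and 0 with arrays centred on their median. Without PGC-1alpha-mTg 2 and 3 it was 3, again all lower.

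Some markers of other cell types differed between the models. Against 15.2% of all genes, the difference was called for 3 of 6 satellite cell, 3 of 10 smooth muscle and pericyte (1 higher in the knockout, 2 lower), 2 of 9 adipocyte, 1 of 7 nerve and Schwann cell and 1 of 12 endothelial markers. It was called for 0 of 12 macrophage, 0 of 10 fibroblast and 0 of 2 blood markers, and in the fibroblast list the median effects were 0.06 and -0.24. Without NCoR1-MKO 5 the macrophage count was 2, and fits that left out 1 array called up to 2 fibroblast markers. The endothelial count was 4 after quantile normalization and 0 with arrays centred on their median. The called satellite cell markers all had the higher value in the knockout. The mean of the list in PGC-1alpha-mTg lay 0.22 to 0.27 below the WT mean on every array, with WT arrays from -0.04 to 0.04. In NCoR1-MKO it lay 0.01 to 0.06 above the CON mean, within the range of the CON arrays (-0.07 to 0.11). Car3, a carbonic anhydrase on the adipocyte list that slow muscle fibres also express strongly, stood at 0.13 ± 0.04 in the knockout and fell by 0.81 ± 0.04 in the transgenic mice (difference 0.94 ± 0.06, adjusted p = 9.59e-10).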

How the data were processed

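RNA from the gastrocnemius of the mice was hybridised to 20 Affymetrix Mouse Gene 1.0 ST arrays, per the labels' protocols. The deposited values are log2 expression per probe set, made by the authors with RMA in Partek per the submitters' processing notes (their versions are not known here). The distributions of the arrays coincide within a cohort more closely than between cohorts, so each effect was taken within its cohort.

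Of 35556 probe sets, 21789 carried 1 gene symbol, 1621 several and 12146 none. Each of 19938 genes was represented by its probe set with the highest mean over the 20 arrays (999 genes had more than 1). Symbols matched RefSeq through the Entrez identifier for 19856 genes. The 4 group means were fitted with limma 3.58.1 in R 4.3.3 with moderated variances, and p-values were adjusted over all genes by the Benjamini-Hochberg method, with calls at 0.05. The labels do not say that each array is its own mouse, so p-values measure the spread between these samples, which may be technical.

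Genes were named by a rule: per class of genes up to 10 with settled symbols, ranked by the smaller effect or by the difference, and per list up to 4 members with the largest called difference. The members and lists were chosen with earlier results of these data known. On simulated data the difference was recovered for 0% of genes changed by 0.2, 80% at 0.5, 98% at 1 and 100% at 2 on the log2 scale, with 12 false among 151 calls over 19938 genes. Only 50 genes per size were changed there, in the NCoR1-MKO group alone. A gene had the same spread in all groups and no transgenic effect. Recovery in the real data, where 15.2% of differences were called, can therefore differ from these shares. Alternatives covered the normalization, dim genes, probe sets, variance model, array weights, a replicate block, a minimum fold and leaving out arrays.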

Additional observations from a re-analysis of the deposited data

Results flagged for a closer look

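For 24 of 328 pairs of a named gene and a group, 1 array stood apart from the other 4, by a gap to its nearest neighbour that made up an unusually large share of the group's range. Chance alone gives about 1 in 20. NCoR1-MKO 5 accounted for 7 of the 24. It was low for Casr (8.02, nearest 8.48, share 0.770), Ppargc1b (8.14 against 8.61, share 0.789) and Psmd8 (10.47 against 10.57, share 0.752). It was high for Tm6sf1 (9.24 against 8.62, share 0.776), Musk (9.53 against 9.33, share 0.783), Myf6 (11.61 against 11.18, share 0.732) and Ociad2 (9.15 against 9.02, share 0.712). The shares for the other knockout arrays were 0.733 for Sntb1 and 0.765 for Gpt2, both high on NCoR1-MKO 4, and 0.735 for Bmpr1b and 0.733 for Rpl8, both low on NCoR1-MKO 2.

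Among the CON arrays the shares were 0.740 for Ptprs and 0.786 for Dach2, both high on CON 2, 0.794 for Ociad2, high on CON 3, and 0.801 for Sirt3, low on CON 5. Among the WT arrays the share for Tfam was 0.926, with WT 2 at 7.26 against 7.45. It was 0.748 for Sntb1, low on WT 1, 0.855 for Pmpcb, high on WT 1, and 0.848 for Car3, high on WT 4. On WT 5 it was 0.743 for Ptprs and 0.841 for Prkag3, both low, and 0.733 for Car2, which was high. Among the PGC-1alpha-mTg arrays it was 0.756 for Neto2, high on PGC-1alpha-mTg 1 (5.23 against 4.63), and 0.819 for Acadvl, high on PGC-1alpha-mTg 5.

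Probe sets with no gene symbol lie outside the comparisons by gene. Of 12146 such probe sets the difference of effects was called by limma for 429 (3.53%), 218 with the higher and 211 with the lower value in the knockout. The largest difference belonged to probe set 10485357, with effects of -5.95 in the knockout and 2.26 in the transgenic mice and a difference of -8.21 (limma adjusted p = 3.2e-06). Next came the closely numbered 10582888 (-2.79 and 3.16, difference -5.95) and 10582916 (-1.84 and 2.69, difference -4.54). Each of these gaps was wider than that of any gene tested. What these probe sets detect is not known here, and the cause of the gaps was not tested.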

How the results depend on the processing

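Precision was limited by 5 arrays per group. The balance of the difference calls moved with the scaling, and it turned without PGC-1alpha-mTg 2 and 3 and under the minimum fold. Under treat with a minimum fold of 1.2 the difference of effects was called for 457 genes (165 with the higher and 292 with the lower value in the knockout), the knockout effect for 44 and the transgenic effect for 1022. Both were then called with the same direction in 19 (larger in the transgenic mice in 3, in the knockout in 0, difference not called in 16, within 1.2-fold in 1) and with opposite directions in 5. With each effect estimated from its own 10 arrays, 87 genes were larger in the transgenic mice and 55 lay within 1.2-fold. The replicate numbers share only a number: the deviations of same-numbered arrays correlated between -0.13 and 0.04 in the knockout cohort and between -0.23 and 0.20 in the transgenic cohort. With the replicate block 76 genes were larger in the transgenic mice and 52 lay within 1.2-fold. Without PGC-1alpha-mTg 2 and 3, an alternative chosen after seeing the data, 2 genes were larger in the knockout and the difference for Ctnna3 was -0.01. With 1 array left out the difference was called for 2648 to 3736 genes (1401 to 2182 higher, 1178 to 1554 lower), the knockout effect for 370 to 617 and the transgenic effect for 4868 to 6544. The same direction was called for 219 to 376 (larger in the transgenic mice 87 to 149, in the knockout 3 to 6, difference not called 125 to 221, within 1.2-fold 50 to 97) and opposite directions for 40 to 72. For Myl2 the difference was 0.02 without CON 2 and 0.00 without NCoR1-MKO 5. The cause of these shifts was not tested, apart from the minimum fold and the smaller samples, which act by construction.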
